A study of Mus musculus with 16 samples.

Results

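Ribosome-protected footprints and cytoplasmic RNA were compared, gene by gene, in unmodified (WT) adult neural stem cells, to find which mRNAs carried more or fewer ribosomes than their RNA level would give. The comparison used 8 of the 16 libraries of the series, namely 4 footprint libraries and 4 RNA libraries of WT cells, chosen by assay and genotype and paired by replicate number. Both libraries of a number come from the same lysate. The other 8 libraries, from Fmr1 KO cells, appear only where the WT ratios are set beside the same ratios in KO cells, and no genotype difference was tested.

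Male FVB/N mice of 8 to 10 weeks, WT littermates of Fmr1 KO animals, were the source of the cells, which came from the dentate gyrus of the hippocampus. The medium held 20 ng/ml of EGF and 20 ng/ml of FGF2, which keep such cells dividing. FMRP, the product of Fmr1, binds mRNAs and ribosomes. All groups, WT and KO alike, received cycloheximide at 100 µg/ml for 10 min before harvest, which stalls elongating ribosomes. One portion of each lysate gave cytoplasmic RNA, amplified with a NuGEN Ovation kit, and the larger portion was treated with the nucleases RNase A and T1, after which single ribosomes were collected from a sucrose gradient. Molecular identifiers in the footprint libraries were 5 nt long for the first pair of replicates (1 and 2) and 8 nt long for replicates 3 and 4. A replicate was an independent isolation of cells, and p-values measure the spread between these 4 isolations.

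A ribosome covers a short stretch of mRNA and shields it from nuclease, so sequencing the shielded fragments counts ribosomes on each mRNA. The number of footprints divided by the amount of RNA is a measure of translational efficiency. Cells set this efficiency mRNA by mRNA: short upstream reading frames divert scanning ribosomes before they reach the main reading frame, a tract of pyrimidines at the first base (the TOP motif) couples mRNAs of the translation machinery to mTOR signalling, and protein-bound hairpins gate the mRNAs of iron metabolism. The ratio says nothing of how fast each ribosome moves, and a stalled ribosome gives a footprint as a moving one does.

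The WT footprint libraries held 9397586 to 13713753 counts and the RNA libraries 5330018 to 6425205. Markers of neural stem and progenitor cells summed to 5132 to 11333 TPM (transcript levels scaled for length and depth) in RNA, with 1 of 19 listed at 0 (Prom1). Astrocyte markers ran from 974 to 9574, the higher sums being those of replicates 1 and 2, with 1 of 12 at 0 (Gjb6). Oligodendrocyte lineage markers summed to 1836 to 2810 with Sox10 and Mog at 0, and neuroblast and neuron markers to 188 to 704. Microglia markers summed to 0 to 2 with 7 of 10 at 0, endothelial and mural markers to 20 to 52 with 6 of 10 at 0, ependymal markers to 28 to 59 with 3 of 6 at 0, and all 5 erythroid markers measured were at 0. These sums rest largely on few genes. Olig1 had 1387, 888, 922 and 1176 TPM in RNA and Olig2 801, 700, 712 and 829, while Pdgfra had 12, 3, 0 and 0. In replicates 3 and 4 most of the astrocyte sum was Glul (1171 and 564) and Aldoc (345 and 334), with Gfap at 3 and 3. Map2 (553, 446, 337 and 149) made up most of the neuroblast and neuron sum. The cells thus carried the markers of their label together with some transcripts of the astrocyte and oligodendrocyte lists, whose part in the ratios was not tested. In such bulk libraries fewer cells of a type and less RNA per cell cannot be told apart.

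Across the 9993 genes with enough counts in both assays, footprints were spread far more unevenly than RNA levels alone would give. By edgeR's quasi-likelihood test with the replicate pair as a block, 3636 genes were higher in footprints than in RNA (36.4%) and 3439 were lower (34.4%), at an adjusted p under 0.05. The log2 ratio had an SD of 1.29 over genes, and the 5th and 95th percentiles were -2.05 and 2.14. Its median SD between the 4 pairs was 0.33. With the length offset described below, over the 8617 genes with a usable length, the SD was 1.06 and the same percentiles were -1.78 and 1.67. By counts, at least a 2-fold difference was called for 2108 genes on the high side and 1983 on the low side, and at least an 8-fold difference for 165 and 106. Of the 7075 genes called, 6803 had the same sign in all 4 pairs. The 4 footprint values lay wholly above the 4 RNA values for 2107 genes (21.1%) and wholly below them for 2080 (20.8%). The TMM scaling sets the typical gene near 0, so a ratio is relative to the other mRNAs and gives no absolute number of ribosomes per mRNA. Scaling by total counts moved the median gene from 0.03 to -0.17 and gave 3012 higher and 4068 lower genes, so that 42.5% of calls were higher in place of 51.4%. On the deposited TPM values the median gene moved to -0.46, with 1746 higher and 5062 lower genes (25.6% of calls higher).

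Libraries of one assay correlated more closely than footprints did with RNA. Single genes could still differ many-fold between cultures, as Apoe did in RNA (5192, 799, 21 and 16 TPM in replicates 1 to 4). Described over genes, the correlation of log2 levels was 0.843 to 0.965 between footprint libraries and 0.813 to 0.953 between RNA libraries. It was 0.732 to 0.768 between footprints and RNA of one lysate and 0.569 to 0.724 between those of different lysates. The 4 sets of pair ratios correlated at 0.8286 to 0.955. These values are across genes, which are not independent replicates, and share the counting and the gene models.

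Genes at both ends and in the middle of the range show what a ratio looks like in counts scaled to a common depth (CPM, with TMM factors). Nes, the intermediate filament that marks neural stem cells (chr3:87971093-87980451, GRCm38.p6), had 1642, 2245, 2430.1 and 2969 CPM in the RNA of replicates 1 to 4 and 1319, 2266, 2358 and 3063 in footprints. The groups overlapped, and the ratio did not pass the test (log2 ratio -0.08, SE 0.14, adjusted p = 0.649). Actb, the cytoplasmic actin used as a reference gene (chr5:142903115-142907976), had 7318, 5027, 6799 and 6309 CPM in RNA and 5995, 6751, 7645 and 6276 in footprints, which also overlapped (log2 ratio 0.07, SE 0.17, adjusted p = 0.699). Neither gene has a direction to report, since both change sign under another scaling or with the length offset described next. Gapdh, the glycolytic enzyme often used as a second reference (chr6:125161852-125166467), had 1400.2, 2607, 2961 and 3388 CPM in RNA but 412, 1128, 836 and 800.0 in footprints. Every footprint value of Gapdh lay below every RNA value (log2 ratio -1.72, SE 0.17, adjusted p = 9.60e-06). Sox2, a transcription factor that maintains neural stem cells, had RNA of 298, 227, 113 and 145 CPM and footprints of 386, 255, 119 and 187 CPM (log2 ratio 0.25, SE 0.13, adjusted p = 0.112), with no direction kept under the length offset (-0.07).

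**Figure D1:**
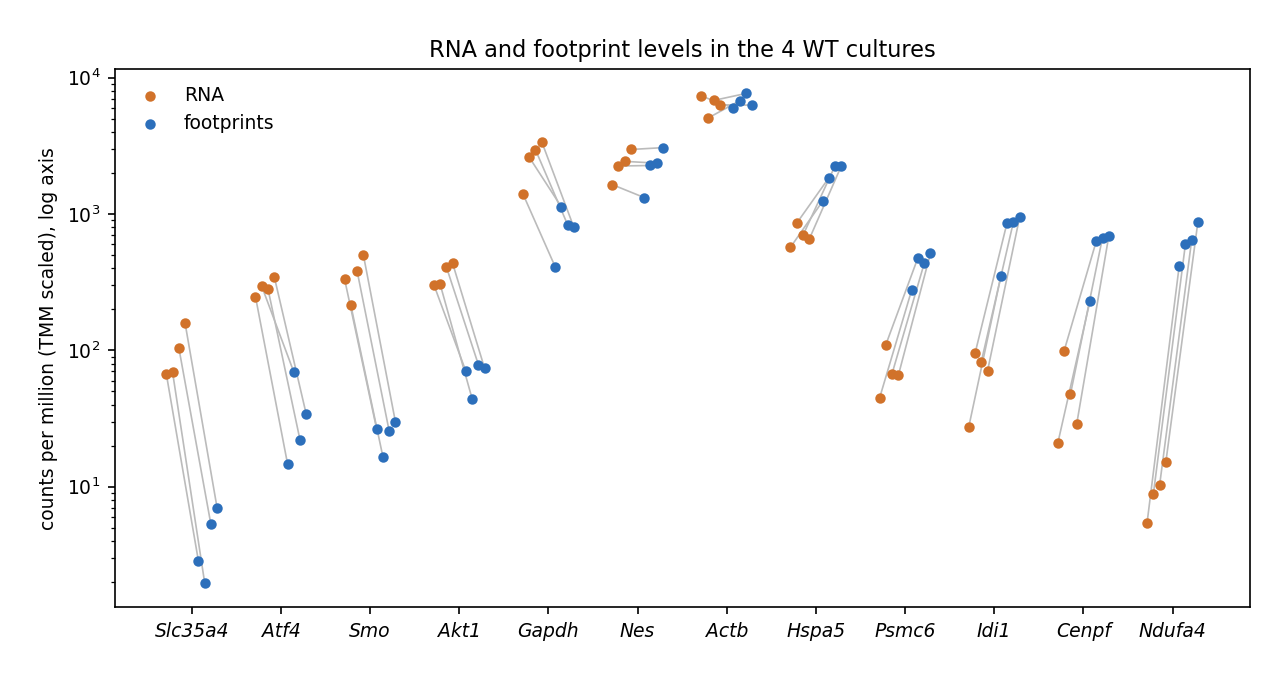
Levels in CPM (TMM scaled, log axis) of 12 genes in the 4 WT RNA libraries (orange) and the 4 WT footprint libraries (blue), with a grey line joining the pair from each culture. The lines fall for Slc35a4, Atf4, Smo, Akt1 and Gapdh, run almost level for Nes and Actb, and climb for Hspa5, Psmc6, Idi1, Cenpf and Ndufa4.

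The most abundant mRNAs were largely the same in both assays but not in the same proportions. Ckb, brain creatine kinase, had the highest mean CPM in footprints, with 12096, 11969, 11596 and 12014 CPM against 6697, 4225, 5798 and 7197 in RNA, and all 4 footprint values were the higher (log2 ratio 1.02, SE 0.18, adjusted p = 4.27e-04). Eef1a1, the elongation factor that brings aminoacyl-tRNA to the ribosome, had the highest mean CPM in RNA, with 9023, 7342, 8425 and 8814, and 5413, 8023, 10890.2 and 13553 in footprints, above Ckb in replicate 4. Its ratio was negative in replicate 1 and positive in the other 3 and did not pass the test (log2 ratio 0.10, SE 0.22, adjusted p = 0.698). Hspa8, the constitutive cytosolic chaperone, had 4139, 3365, 4295 and 4658 CPM in RNA and 6282, 5626, 6855 and 7074 in footprints, again without overlap (log2 ratio 0.66, SE 0.14, adjusted p = 0.00211).

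Gene length moved with the ratio and had to be read beside it. Dividing each gene's deposited counts by its deposited TPM gives the effective length that the authors' quantification used, on a relative scale. In genes under 0.15 of the median length, 37 in number, the RNA length was only 0.17 of the footprint length, and the median log2 ratio was 3.60. From 1 to 2 times the median length, with 2875 genes, the lengths were nearly equal (1.04) and the median ratio was -0.13. Short genes thus had few RNA counts for their TPM, and high ratios by counts. A second fit with the implied lengths as an offset, chosen after this was seen, covered the 8617 genes with a usable length, of which 2931 were higher (34%) and 2787 lower (32.3%). Of the 3492 higher genes with a length, 2882 stayed higher, 596 no longer passed and 14 became lower. Of the 2548 lower genes with a length, 2464 stayed lower, 84 no longer passed and none (0) became higher. With the offset, 30 genes were at least 8-fold higher and 49 at least 8-fold lower, against 165 and 106 by counts. These counts are not over the same genes. A length was usable for 3492 of the 3636 higher genes but for only 2548 of the 3439 lower ones. Map3k10, Adcy1 and Mllt6, among the lowest by counts, had none. Where a single ratio is given below it is the one by counts, and for genes named as higher or lower a call that the offset ended is stated. Over the 8350 longer genes, whose implied RNA length is at least 0.5 of the footprint length, 2737 were higher (32.8%) and 2762 lower (33.1%). Even with the offset, short genes had the higher ratios: over 5 equal groups by length, the median fell from 0.68 in the shortest to -0.41 in the longest.

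**Figure D2:**
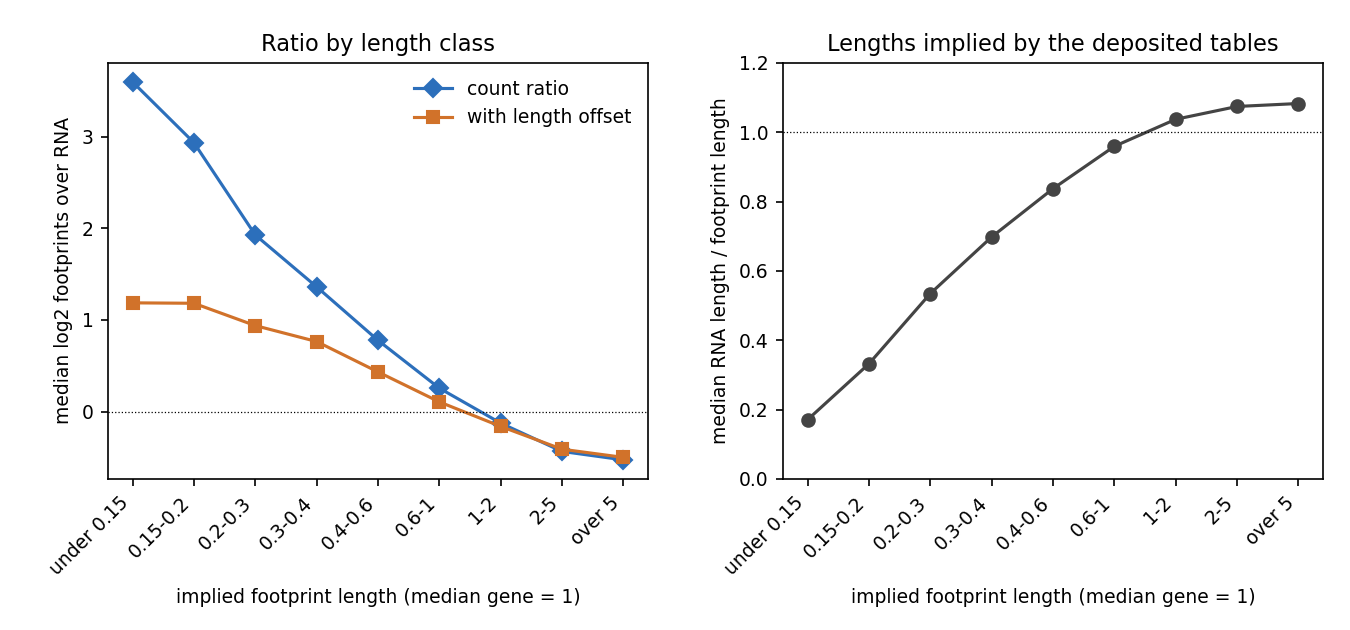
Left, median log2 ratio of footprints to RNA in 9 classes of footprint length relative to the median gene, by counts and with the length offset; right, the ratio of RNA length to footprint length implied by the deposited tables. The shortest class stands at 3.60 by counts and 1.19 with the offset, while genes near the median length differ little between both fits.

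Other properties of the genes moved with the ratio less steeply. The share of G and C in the 300 bases around the RefSeq start, for genes with such a window, went with a median length-offset ratio of 0.23 in the lowest of 5 equal groups and -0.29 in the highest. By RNA level, the median with the offset was 0.27 in the most abundant group and 0.23 in the least abundant, and ran from -0.15 to -0.09 in the groups between. The level groups hold only genes with a usable length, so genes with little RNA and few footprints are left out, which raises the least abundant group. RNA level is also the denominator of the ratio, so no trend with level is read from these medians. All such values are descriptions over genes, and the part of length, base composition or level in any single result was not tested.

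A small set of genes could not be given a ratio because the RNA table lists them at 0. In all, 13 genes had enough footprints and no RNA count in any WT library. Tmsb4x, the actin-sequestering peptide thymosin beta 4, had 57577 footprint counts in total, with 1081, 1147, 1976 and 1367 CPM in replicates 1 to 4. Tomm7, a subunit of the mitochondrial import pore, had 3531 footprint counts, Tmsb10 had 3332, and Cox17, a copper chaperone, had 1016. These are very short reading frames, at 0.0365 (Tmsb4x) to 0.0833 (Cox17) of the median footprint length, and no fold is given for them.

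The translation machinery itself was above its RNA level in most cultures, but with a wide spread between members. Of 76 cytosolic ribosomal protein genes tested, 60 were higher and 5 lower, with a median log2 ratio of 1.24 against 0.03 for all genes tested. With the length offset, 46 were higher and 9 lower, with a median of 0.65 against 0.04. The median over the list was 0.61, 1.72, 1.22 and 1.42 in pairs 1 to 4, so replicate 1 stood lowest. Ribosomal protein mRNAs took 2.81% to 8.23% of footprint counts and 2.67% to 5.08% of RNA counts, with the footprint share higher in 4 of 4 pairs. Several of these genes have many pseudogenes, so the division of reads among copies leaves single values uncertain.

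The highest ratios among ribosomal protein genes belonged to very short reading frames. Rpl38, of the large subunit, had 4.90, 5.201, 6.42 and 13.02 CPM in RNA and 279, 526, 636 and 773 in footprints. Footprints exceeded RNA in every library, and the log2 ratio of 6.25 (SE 0.21, adjusted p = 1.20e-07) dropped to 2.25 with the length offset. Rps28, of the small subunit, went from 4.84 by counts to 0.73 with the offset. Rps27 and Rps21, also of the small subunit, had ratios of 4.74 by counts and 2.11 with the length offset, and of 4.74 by counts and 2.06 with the length offset. Rpl34 gave 3.14 by counts and 1.87 with the length offset. Rps6, the small-subunit protein phosphorylated downstream of mTOR, was close to the typical gene, at 0.54 by counts (adjusted p = 0.0238) and 0.32 with the offset (adjusted p = 0.149).

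The 5 lower members were Rplp0, Rpsa, Rps2, Rps12 and Rps23. Rps2 (chr17:24718121-24721927) had 1906, 2244, 4395 and 5516 CPM in RNA and 448, 941, 1359 and 1517 in footprints, with no overlap (log2 ratio -1.72, SE 0.17, adjusted p = 9.35e-06). Rplp0, the base of the ribosomal stalk, had 1956, 1732, 3080.1 and 3460.0 CPM in RNA and 405, 673, 1083 and 1187 in footprints (log2 ratio -1.67, SE 0.18, adjusted p = 1.52e-05). Both kept their values with the offset, at -1.81 and -1.76. Rpsa was at -1.17 by counts and -1.27 with the length offset, Rps12 at -0.62 by counts and -1.56 with the length offset and Rps23 at -1.33 by counts and -2.15 with the length offset.

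Start sites are shown for 6 mRNAs of the translation machinery. Rpl38 and Rps27 are examples above the typical gene, Rps6 lay close to it, and Rps2, Rps23 and Eef2 are examples below it. The windows hold 10 bases before and 20 from the annotated RefSeq start on (GRCm38.p6), in the sense of the transcript, with capitals marking any of the words CTTTT or CTTTC or CTCTT or CCTTT or CTTCC. They were searched on the transcript strand only and can overlap one another. They lie at chr11:114668570-114668599 (+) for Rpl38, chr3:90213629-90213658 (-) for Rps27, chr4:86857348-86857377 (-) for Rps6, chr17:24720053-24720082 (+) for Rps2, chr13:90923112-90923141 (+) for Rps23 and chr10:81176621-81176650 (+) for Eef2. The windows of Rpl38 and Rps2 lie inside the spans annotated for those genes, so their starts are not the outermost annotated ones.
Rpl38: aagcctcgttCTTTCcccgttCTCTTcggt
Rps27: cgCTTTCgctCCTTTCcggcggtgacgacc
Rps6: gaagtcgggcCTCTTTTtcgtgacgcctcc
Rps2: gtcgagatctcgcgcttcttggagcactat
Rps23: cggctgggcggggCTTCCcgcaatgccttg
Eef2: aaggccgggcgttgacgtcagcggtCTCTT
In Rpl38, Rps27 and Rps6 a word begins at the annotated start itself, after the first 10 bases, as a TOP motif does, while the words of Rps23 and Eef2 lie further on and Rps2 has none. At least 1 word was found in 27 of 58 ribosomal protein genes with a window (46.6%), in 18.5% of all genes tested with a window and in 18.5% of all 27025 starts of the table. The length-offset median was 0.67 for the 27 ribosomal protein genes with a word and 0.71 for the 29 without that had a length. A match is a description of these letters: annotated starts can lie away from the start used in these cells.

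Other TOP mRNAs had a median close to that of all genes tested. Of 16 tested, 7 were higher and 4 lower, against 36.4% and 34.4% of all genes tested. Their median was 0.15 by counts and -0.01 with the offset. Npm1, the nucleolar chaperone nucleophosmin, had 124, 253, 285 and 247 CPM in RNA and 754, 1229, 1822 and 2347 in footprints, wholly above (log2 ratio 2.702, SE 0.18, adjusted p = 8.09e-07, 2.38 with the offset). Nap1l1, a histone chaperone, was at 1.38 by counts and 1.24 with the length offset, and Vim, the intermediate filament vimentin, at 0.71 by counts and 0.60 with the length offset. The 4 lower were Eef2, Pabpc1, Eif4b and Eef1g. Eef2, which moves the ribosome along the mRNA, had 6102, 4362, 4666 and 6004 CPM in RNA and 1873, 2805, 2862 and 3054 in footprints, all below the lowest RNA value (log2 ratio -1.003, SE 0.196, adjusted p = 9.84e-04). Pabpc1, the poly(A)-binding protein, was at -1.19, Eif4b at -0.84 and Eef1g at -0.60.

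Initiation factors were mostly above the typical gene, the scaffold proteins among them below it. Of 43 tested, 31 were higher and 6 lower, with a median of 0.99 by counts and 0.64 with the offset, and pair medians from 0.82 to 1.14. Eif3j1, a loosely bound subunit of the eIF3 complex, had 26.9, 41.8, 34.9 and 30.98 CPM in RNA and 164, 161, 198 and 232 in footprints (log2 ratio 2.49, SE 0.18, adjusted p = 1.25e-06, 2.217 with the offset). Eif1, which guards start codon choice, was at 3.15 by counts and 1.704 with the length offset. The 6 lower were Eif4g1, Eif4g2, Eif4g3, Eif2b5, Eif2d and Eef2k, the last a regulator of elongation that the list also holds. Eif4g2, a scaffold that works without the cap-binding factor, had 1349, 2747, 1555 and 1500.3 CPM in RNA and 712, 1074, 766 and 1038 in footprints, below RNA in every culture (log2 ratio -0.96, SE 0.16, adjusted p = 3.75e-04). Eif4g1 and Eif4g3, the scaffolds of the cap-binding complex, were at -0.65 and -0.82, and Eef2k, the kinase that inactivates Eef2, at -1.57. Eif2b5, which recharges eIF2 with GTP, was at -0.68 and Eif2d, a noncanonical factor, at -0.80. Among 22 aminoacyl-tRNA synthetases and their cofactors, 10 were higher and 1 lower, with a median of 0.23 by counts and 0.29 with the offset. Dars, for aspartate, was at 1.50 by counts and 1.22 with the length offset, Eprs, for glutamate and proline, at 1.41 by counts and 1.41 with the length offset, and the lower one, Vars, for valine, at -0.61 by counts and -0.40 with the length offset.

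The mRNAs known for control by upstream reading frames or frameshifting were mostly below their RNA level. Of 25 tested, 15 were lower and 4 higher, with a median of -0.65 by counts and -0.88 with the offset, where 14 were lower and 3 higher of 23 with a length. Pair medians ran from -1.13 to -0.55, all below 0. Atf4, the transcription factor that upstream frames hold down until eIF2 is phosphorylated (chr15:80255184-80257545), had 247, 295, 282 and 348 CPM in RNA and 14.7, 69.3, 21.95 and 33.9 in footprints. The highest footprint value, in replicate 2, was still far below the lowest RNA value (log2 ratio -3.29, SE 0.29, adjusted p = 4.47e-06, -3.46 with the offset). Whether footprints on the upstream frames enter these counts is not given in the sources used here.

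Slc35a4, a member of the nucleotide-sugar transporter family whose mRNA carries upstream frames (chr18:36679215-36683862), had 67.04, 69.1, 104 and 159 CPM in RNA and 2.86, 1.98, 5.30 and 6.97 in footprints. It lay near the bottom of the list with no overlap between assays (log2 ratio -4.59, SE 0.19, adjusted p = 1.20e-07). Ppp1r15a, the stress-induced subunit that reverses eIF2 phosphorylation, had 344, 86.4, 44.2 and 55.97 CPM in RNA and 12.5, 7.66, 1.30 and 3.84 in footprints (log2 ratio -4.24, SE 0.27, adjusted p = 5.99e-07). Footprints were below RNA in every pair, although the RNA of replicate 1 was several times that of the others. Atf5, a relative of Atf4, was at -3.74 by counts and -4.09 with the length offset, and Odc1, the first enzyme of polyamine synthesis, at -1.08 by counts and -1.04 with the length offset.

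The 4 members above their RNA level were Bzw1, Cebpg, Oaz1 and Tmem208. Bzw1, a regulator of initiation that controls its own start codon, had 307, 349, 283 and 243 CPM in RNA and 724, 941, 701 and 775 in footprints (log2 ratio 1.41, SE 0.14, adjusted p = 8.93e-06). Oaz1, the antizyme of Odc1 whose synthesis needs a frameshift, had 75.5, 80.8, 122 and 129 CPM in RNA and 149, 192, 221 and 255 in footprints, opposite to Odc1 (log2 ratio 1.02, SE 0.14, adjusted p = 7.23e-05, 0.71 with the offset). Cebpg was at 1.79 by counts and 0.95 with the length offset. Tmem208 was at 0.80 by counts and did not pass with the offset (0.203, adjusted p = 0.418).

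The mRNAs with iron-responsive hairpins, listed together with the regulators Ireb2 and Fbxl5, stood on both sides of the typical gene. Of the 9 genes of this list tested, 2 were higher and 5 lower. The median was -0.97 by counts, which is the value of Fbxl5. For the 7 with a length the offset median was -0.18, a value that also reflects the loss of 2 lower genes, Cdc14a and Epas1. Ftl1, the ferritin light chain, which is repressed through a hairpin before its reading frame, had 953, 623, 984 and 496 CPM in RNA and 271, 198, 204 and 117 in footprints. Every footprint value was below every RNA value (log2 ratio -1.96, SE 0.15, adjusted p = 1.91e-06, -2.59 with the offset). Tfrc, the transferrin receptor, stabilised through hairpins after its frame, had 58.6, 138, 92.8 and 124 CPM in RNA and 211, 421, 554 and 821 in footprints, the opposite order (log2 ratio 2.19, SE 0.21, adjusted p = 6.44e-06). Ireb2, which binds these hairpins, was at 0.84, with Slc11a2 at -1.04, Cdc14a at -1.27, Epas1 at -1.45 and Fbxl5, the sensor that degrades Ireb2, at -0.97.

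Selenoproteins have reading frames that contain a stop codon read as selenocysteine. Of 16 tested, 8 were higher and 5 lower, against 36.4% and 34.4% of all genes tested, with a median of 0.48 by counts. With the offset 6 were higher and 6 lower, close to the 34% and 32.3% of all genes, with a median of 0.196. Selk, a short membrane protein of the endoplasmic reticulum, was at 4.54 by counts and 2.35 with the length offset. The lower ones were Sephs2, the selenophosphate synthetase, at -2.19, Gpx1, a glutathione peroxidase, at -0.98 (-1.40 with the offset), Sepn1 at -1.06, Selo at -0.65 and Sepp1, the secreted carrier of selenium, at -0.51 (-0.93 with the offset).

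Nuclear-encoded mRNAs of the mitochondrial respiratory chain had the highest median of all lists. Of 68 subunits tested, 65 were higher and none (0) lower, with a median of 2.12. With the offset, 60 were higher and 1 lower, with a median of 1.27. Over the 43 longer members the offset median was 1.03, against 1.05 for the mitosis list. Pair medians ran from 1.85 to 2.65. The subunits took 1.96% to 2.74% of footprint counts against 0.819% to 1.46% of RNA counts. Ndufa4, a small subunit of the terminal oxidase, had 5.46, 8.81, 10.2 and 15.1 CPM in RNA and 416, 602, 644 and 877 in footprints, with a log2 ratio of 6.03 (SE 0.17, adjusted p = 5.02e-08) that became 3.28 with the offset. Cox7b and Cox6c, short subunits of the same complex, were at 6.14 by counts and 3.24 with the length offset, and at 5.89 by counts and 2.57 with the length offset. Atp5a1, the alpha subunit of the ATP synthase, which is longer, had 1027, 1014, 1516 and 2113 CPM in RNA and 1577, 1802, 2407 and 2895 in footprints, a smaller difference that the offset left in place (0.64 and 0.71). Atp5b, the beta subunit, which holds the catalytic sites, did not pass (0.23, adjusted p = 0.24). Cox7c, with one of the shortest frames, turned from 1.63 to -3.66 and has no direction to report.

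Mitochondrial ribosomal proteins followed the same order. Of 74 tested, 64 were higher and 1 lower, with a median of 1.30 by counts and 0.88 with the offset. Mrpl50 had 3.39, 4.33, 6.27 and 8.53 CPM in RNA and 57.9, 82.4, 95.7 and 109.5 in footprints, wholly above (log2 ratio 3.97, SE 0.18, adjusted p = 1.52e-07, 3.32 with the offset). Mrps14 was at 3.75 by counts and 2.60 with the length offset and Mrpl15 at 1.15 by counts and 1.12 with the length offset. The lower member was Mrpl37, at -0.50 by counts and -0.48 with the length offset. No ratio can be given for the 13 proteins that mitochondria encode themselves, none (0) of which the files list.

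Protein folding and degradation machines were above the typical gene almost throughout. Of 35 proteasome subunits, 31 were higher and none (0) lower, with a median of 1.09 by counts and 0.93 with the offset. Psmc6, an ATPase of the regulatory particle (chr14:45329823-45349074), had 44.8, 110.1, 67.6 and 65.5 CPM in RNA and 277, 478, 434 and 514 in footprints. The footprint values were several times the RNA values in each culture (log2 ratio 2.60, SE 0.17, adjusted p = 6.99e-07, 2.50 with the offset). Psma6, of the core ring, was at 2.26 by counts and 2.01 with the length offset. All 14 subunits of the chaperonin CCT and its partner prefoldin, which fold actin and tubulin, were higher, with a median of 1.31, and 13 of 14 were with the offset (median 0.89). Vbp1 and Pfdn5, prefoldin subunits, were at 3.50 by counts and 3.01 with the length offset, and at 2.53 by counts and 1.78 with the length offset. Hsp90aa1, an abundant cytosolic chaperone outside these lists, had 146, 449.7, 222 and 154 CPM in RNA and 1287, 2473, 2124 and 2725 in footprints (log2 ratio 3.24, SE 0.25, adjusted p = 1.90e-06).

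In the endoplasmic reticulum, 18 of 30 chaperones and folding enzymes were higher and 1 lower, with a median of 0.75 by counts and 0.58 with the offset. Hspa5, the chaperone BiP (chr2:34772090-34776529), had 569, 855, 696 and 652 CPM in RNA and 1238, 1837, 2256 and 2245 in footprints, without overlap (log2 ratio 1.43, SE 0.17, adjusted p = 3.03e-05). Hsp90b1 was at 2.13 by counts and 2.15 with the length offset, and Sec61g, the smallest subunit of the translocation channel, at 5.56 by counts and 3.69 with the length offset. The lower one was Syvn1, a ubiquitin ligase of the membrane, at -0.89 by counts and -0.88 with the length offset.

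**Figure D3:**
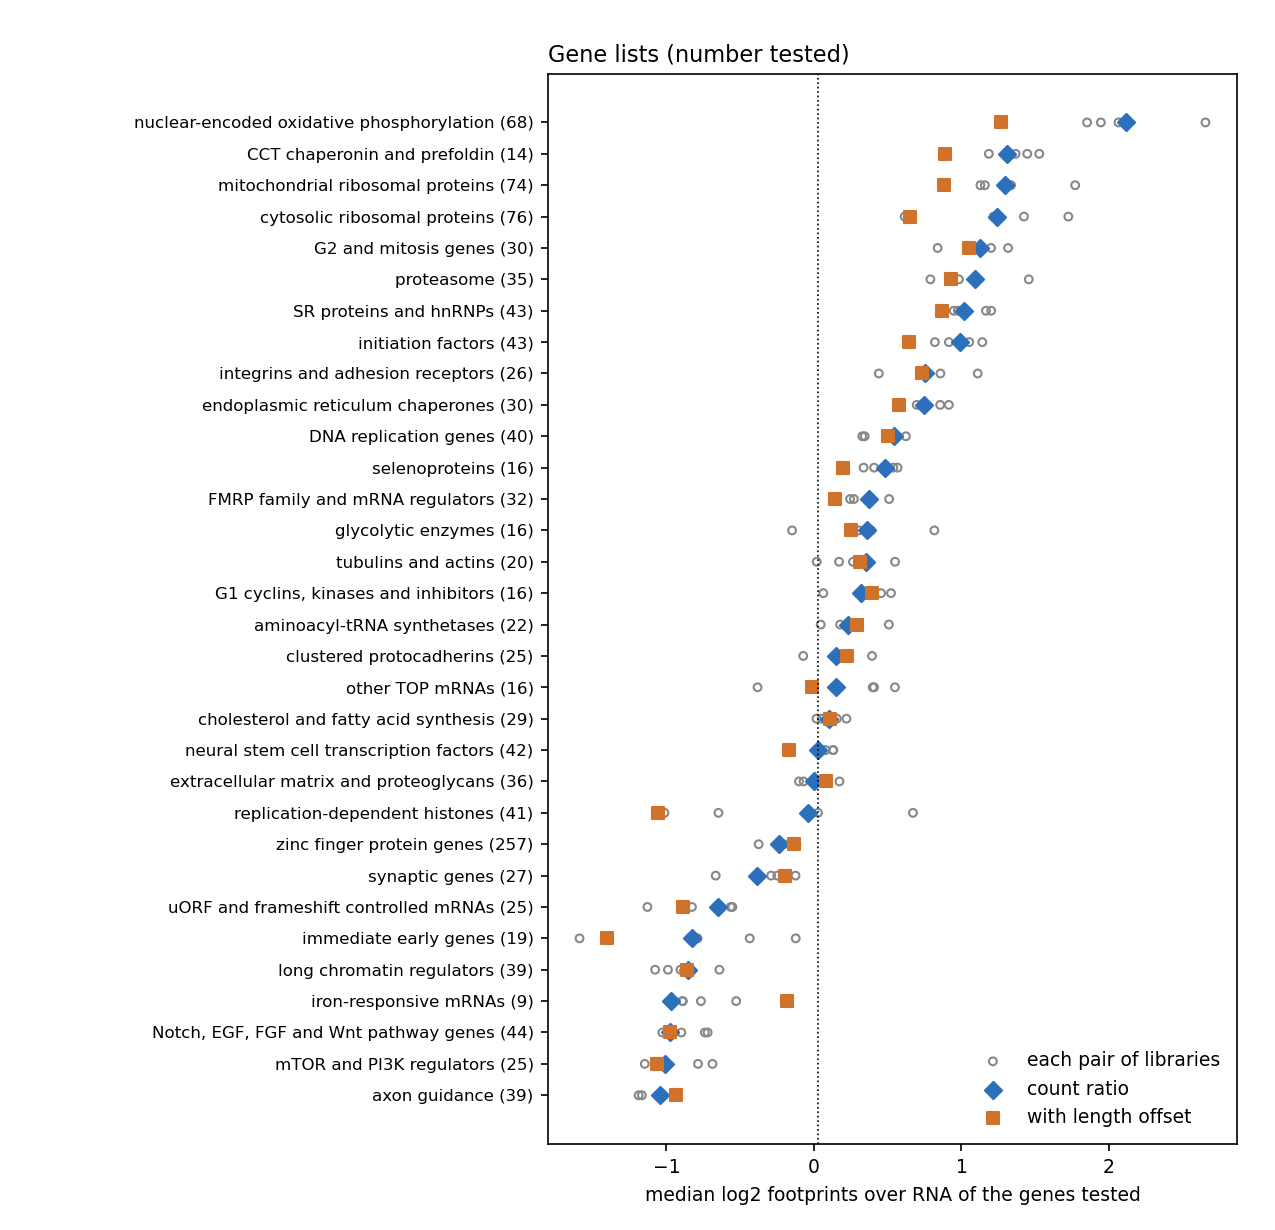
Median log2 ratio of footprints to RNA of the genes tested in each list, by counts and with the length offset, with the number tested. Nuclear-encoded oxidative phosphorylation stands highest at 2.12 by counts, and axon guidance lowest at -1.04 by counts, while with the offset the immediate early genes are lowest at -1.40.

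Within several complexes the subunits had more even levels in footprints than in RNA. Levels were compared per length, as log2(TPM + 1), over subunits whose implied RNA length is at least 0.5 of the footprint length, and the complexes were chosen after values were seen. Over the 8 CCT subunits the SD of levels was 0.20 to 0.31 in the footprint libraries and 0.39 to 0.62 in RNA, smaller in 4 of 4 pairs. Cct8 had 115, 240, 130 and 161 TPM in RNA and 312, 445, 458 and 418 in footprints, while Tcp1 had 262, 479, 377 and 396 in RNA and 283, 367, 523 and 410 in footprints. Tcp1 thus exceeded Cct8 in the RNA of every culture, while in footprints Cct8 was the higher in replicates 1, 2 and 4. Cct6a had 168, 353, 266 and 308 TPM in RNA and 347, 497, 576 and 606 in footprints, Cct4 had 191, 258, 172 and 171 and 291, 317, 367 and 366, and Cct2 had 337, 508, 432 and 537 and 391, 457, 597 and 640.

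The 14 genes of the proteasome core had an SD of 0.28 to 0.38 in footprints and 0.46 to 0.61 in RNA, and the 12 eIF3 subunits 0.43 to 0.49 and 0.55 to 1.204, both smaller in footprints in 4 of 4 pairs. The 6 ATPases of the regulatory particle and the 6 MCM helicase subunits had the smaller SD in footprints in 3 of 4 pairs each. For 43 oxidative phosphorylation subunits the footprint SD was 0.87 to 0.96 against 0.99 to 1.07. For the 25 small-subunit ribosomal proteins the footprint SD was 0.69 to 0.78 against 0.67 to 0.82, smaller in 3 of 4 pairs. This evening was not found everywhere. The 31 large-subunit ribosomal proteins were more uneven in footprints (0.51 to 0.62) than in RNA (0.47 to 0.52), as were the 66 mitochondrial ribosomal proteins (0.78 to 0.81 against 0.66 to 0.78), in 4 of 4 pairs. Over all 8350 longer genes the SD was 1.72 to 1.84 in footprints and 1.47 to 1.74 in RNA. In KO cultures the footprint SD was smaller in 4 of 4 pairs for CCT, the proteasome core, eIF3, the ATPases, MCM and oxidative phosphorylation. It was smaller in 3 of 4 for the small ribosomal subunit, 1 of 4 for mitochondrial ribosomal proteins and 0 of 4 for the large ribosomal subunit.

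**Figure D4:**
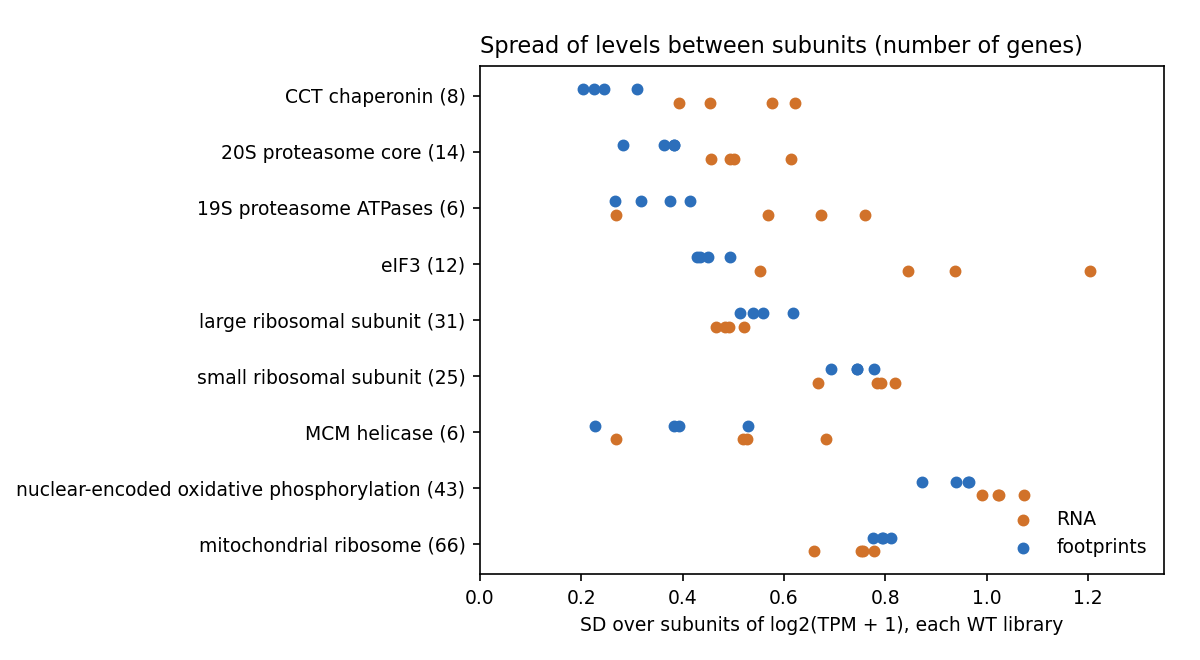
SD over subunits of log2(TPM + 1) in each of the 4 WT footprint libraries (blue) and 4 WT RNA libraries (orange), for 9 complexes or groups with the number of genes in parentheses. The blue points lie left of the orange ones for CCT, the 20S core, eIF3 and oxidative phosphorylation, and right of them or mixed with them for the ribosomal subunits.

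By list median, genes of mitosis and, less so, of DNA replication stood above the typical gene. Of 30 genes of G2 and mitosis, 23 were higher and 1 lower, with a median of 1.12 by counts and 1.05 with the offset, and pair medians from 0.84 to 1.32. Cenpf, a long kinetochore protein (chr1:189640606-189688107), had 21.1, 99.5, 47.6 and 28.7 CPM in RNA and 231, 632, 671 and 686 in footprints, without overlap. Its ratio (log2 ratio 3.62, SE 0.28, adjusted p = 1.82e-06) did not shrink with the offset (3.75). Mki67, the proliferation marker, was at 2.25 by counts and 2.37 with the length offset, Top2a, which untangles chromosomes, at 1.67 by counts and 1.79 with the length offset, and Kif11, a spindle motor, at 2.57 by counts and 2.66 with the length offset. Incenp, of the chromosomal passenger complex, was the lower one, at -0.44, and did not pass with the offset (adjusted p = 0.113).

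Of 40 DNA replication genes, 23 were higher and 2 lower, with a median of 0.54 by counts and 0.51 with the offset. Pola1, the catalytic subunit of the priming polymerase, had 12.6, 57.1, 35.6 and 27.98 CPM in RNA and 62.8, 178, 174 and 202 in footprints (log2 ratio 2.26, SE 0.201, adjusted p = 4.42e-06). Rpa3, the smallest subunit of the single-strand binding protein, was at 4.21 by counts and 3.03 with the length offset, and Mcm6, of the replicative helicase, at 0.55 by counts and 0.71 with the length offset. Pold1 and Pole, the catalytic subunits of the other replicative polymerases, were lower at -0.62 and -0.40, and neither passed with the offset (adjusted p = 0.0645 and 0.25). Among 16 regulators of G1, 7 were higher and 3 lower, against 36.4% and 34.4% of all genes tested, with a median of 0.32. Ccne2, a cyclin of S phase entry, was at 2.08 by counts and 2.11 with the length offset, and Cdkn1a, the inhibitor p21, at 1.67 by counts and 0.97 with the length offset. The lower ones were E2f1, the transcription factor of S phase genes, with 8.10, 29.2, 63.8 and 53.6 CPM in RNA and 2.62, 6.76, 10.8 and 8.41 in footprints (log2 ratio -2.29, SE 0.21, adjusted p = 5.95e-06), Cdk4 at -0.54 and Cdkn2c, an inhibitor of Cdk4, at -1.06 (-1.73 with the offset). In Cdkn2c the ratio was positive in pair 1 and negative in the other 3 (0.40, -1.27, -1.31 and -1.96).

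Replication-dependent histones gave different pictures by counts and with the offset. Of 41 tested, 13 were higher and 17 lower by counts, and 10 and 26 with the offset, with medians of -0.04 and -1.06. Over the 31 longer ones 22 were lower and 4 higher with the offset, against 33.1% and 32.8% of all longer genes. The list median was 0.03, 0.67, -1.01 and -0.65 in pairs 1 to 4. Hist1h2bq had 143, 277, 768 and 1029 CPM in RNA and 3.47, 21.5, 10.2 and 18.6 in footprints (-5.26 by counts and -6.15 with the length offset), whereas Hist4h4 had 2.26, 2.74, 10.7 and 10.6 and 86.3, 157, 216 and 267 (4.91 by counts and 3.35 with the length offset). Histone genes are near-identical copies, so the split of reads between them is uncertain and single values should not be read as those of one gene.

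Proteins that splice and package RNA were above their RNA level. Of 43 SR proteins and hnRNPs, 38 were higher and 3 lower, with a median of 1.02 by counts and 0.87 with the offset, and they took 1.86% to 3.02% of footprints against 1.01% to 1.47% of RNA. Hnrnpa2b1 had 523, 949.9, 823 and 861 CPM in RNA and 1259, 2079.6, 2486 and 3026 in footprints (log2 ratio 1.45, SE 0.16, adjusted p = 1.91e-05), and Hnrnpu had 1032, 1381, 960.1 and 953 and 2137, 2415, 2301 and 2810.0 (log2 ratio 1.17, SE 0.16, adjusted p = 9.01e-05). In both, each footprint value exceeded each RNA value. Srsf3 was at 3.01 by counts and 2.42 with the length offset. Matr3, a nuclear matrix protein that binds RNA, was at 2.58 by counts and 2.58 with the length offset. The lower ones were Hnrnpul1 at -1.04, Hnrnpul2 at -0.46 and Srsf4 at -0.71. Snrpe, a short protein of the spliceosome core, was among the 15 highest genes at 5.84 by counts and 3.73 with the length offset.

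Large chromatin regulators stood on the other side. Of 39 tested, 25 were lower and 2 higher, with a median of -0.86 by counts and -0.86 with the offset, and their share was 0.391% to 0.568% of footprints against 0.881% to 1.198% of RNA. Kmt2d, a histone H3 lysine methyltransferase of enhancers, had 832, 730.3, 536 and 675 CPM in RNA and 116, 117, 80.5 and 84.5 in footprints, all far below RNA (log2 ratio -2.80, SE 0.14, adjusted p = 2.28e-07, -2.68 with the offset). Tet3, which oxidises methylated cytosine, was at -2.29 by counts and -2.26 with the length offset. The 2 higher ones were Atrx, a chromatin remodeller, with 28.4, 49.6, 21.7 and 9.28 CPM in RNA and 365, 278, 259.6 and 246 in footprints (log2 ratio 3.58, SE 0.30, adjusted p = 3.38e-06), and Setd2, which methylates H3 lysine on transcribed genes, at 1.53 by counts and 1.55 with the length offset. Of 257 zinc finger protein genes, 114 were lower and 73 higher, against 34.4% and 36.4% of all genes tested, with a median of -0.24. A further 54 had enough counts in footprints only and 6 in RNA only, against 722 and 241 beside the 9993 genes tested. The zinc finger median leaves these out, and so leaves out more members on the footprint side.

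Smc3 and Pcm1, chosen after their values were seen, lay far above their RNA level. Smc3, of cohesin, had 25.2, 58.1, 13.9 and 11.8 CPM in RNA and 249, 273, 232 and 274 in footprints (log2 ratio 3.50, SE 0.33, adjusted p = 7.16e-06), and Pcm1, which organises centriolar satellites, had 34.1, 68.3, 23.4 and 14.5 and 370.2, 325, 292 and 325 (log2 ratio 3.43, SE 0.31, adjusted p = 4.82e-06). In Smc3, Pcm1, Atrx and Cenpf the footprint level varied less between cultures than the RNA level, which was highest in replicate 2, so the ratio was smallest in pair 2 and largest in pair 4.

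FMRP itself and its partners in mRNA control were measured too. Fmr1 (chrX:68678536-68717963) had 39.2, 100.4, 34.6 and 26.2 CPM in WT RNA and 137, 162, 159 and 165 in WT footprints. Footprints were even across cultures and exceeded RNA in each (log2 ratio 1.83, SE 0.28, adjusted p = 1.69e-04, 1.76 with the offset). Its autosomal relative Fxr1 was at 2.27 by counts and 2.27 with the length offset, and Caprin1, a binding partner, had 430.1, 563, 477 and 389 CPM in RNA and 1048, 1105, 1162 and 1198 in footprints (log2 ratio 1.29, SE 0.15, adjusted p = 2.67e-05). Elavl2, a stabiliser of AU-rich mRNAs, was at 2.18 by counts and 2.01 with the length offset. Of the 32 mRNA regulators tested, 13 were higher and 7 lower, against 36.4% and 34.4% of all genes tested. Their median was 0.37 by counts and 0.14 with the offset.

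Receptors, effectors and inhibitors of signalling pathways that act on neural stem cells were mostly below their RNA level. Of 44 genes of the Notch, EGF, FGF, Wnt, BMP and Hedgehog pathways, 29 were lower and 6 higher, with a median of -0.98 by counts and -0.97 with the offset. The share of the list was lower in footprints in 4 of 4 pairs. Smo, the transducer of the Hedgehog signal (chr6:29735497-29761366), had 331, 213, 381 and 501 CPM in RNA and 26.3, 16.5, 25.5 and 29.8 in footprints. Every footprint value lay far below every RNA value (log2 ratio -3.83, SE 0.15, adjusted p = 1.20e-07, -3.74 with the offset). Ptch1, the Hedgehog receptor that inhibits Smo, had 774, 369, 147 and 219.8 CPM in RNA and 75.8, 40.5, 20.98 and 28.1 in footprints (log2 ratio -3.08, SE 0.15, adjusted p = 2.24e-07). Lrp5, a Wnt coreceptor, was at -2.32 by counts and -2.18 with the length offset, and Notch1 had 2115, 1136, 1011 and 1733 CPM in RNA and 1025, 649.6, 473 and 712 in footprints (log2 ratio -1.06, SE 0.14, adjusted p = 7.32e-05).

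The 6 higher ones were Egfr, Ctnnb1, Apc, Rbpj, Bmpr1b and Smad5. Egfr, the receptor for the EGF in the medium, had 1313, 413, 295 and 299 CPM in RNA and 2473, 862, 572 and 700.0 in footprints, higher in each culture although replicate 1 stood well above the others in both assays (log2 ratio 1.04, SE 0.14, adjusted p = 6.02e-05). Ctnnb1, the Wnt effector beta-catenin, had 1285, 1039, 724 and 726 CPM in RNA and 2461, 1733, 1409.6 and 1418 in footprints (log2 ratio 0.90, SE 0.14, adjusted p = 1.63e-04). Apc, which targets beta-catenin for destruction, was at 0.93, with pair ratios of 0.77, -0.003, 0.93 and 2.06, and Rbpj, the DNA-binding partner of the Notch intracellular domain, was at 0.79. The BMP receptor Bmpr1b was at 0.60 and Smad5, which carries its signal, at 0.43. With the offset 4 of the list were higher, and neither Bmpr1b (0.23, adjusted p = 0.301) nor Smad5 (0.34, adjusted p = 0.0866) passed. Without the footprint library of replicate 1, fitted with no replicate block, Bmpr1b was at -0.56.

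Regulators of mTOR and PI3K were below their RNA level as a list. Of 25 tested, 16 were lower and 3 higher, with a median of -1.01 by counts and -1.07 with the offset, and their share was 0.112% to 0.158% of footprints against 0.266% to 0.322% of RNA. Akt1, the kinase downstream of PI3K (chr12:112653821-112674884), had 303, 307, 411 and 436 CPM in RNA and 70.1, 44.1, 78.5 and 73.7 in footprints, without overlap (log2 ratio -2.47, SE 0.16, adjusted p = 6.23e-07, -2.46 with the offset). Pik3r2, a regulatory subunit of PI3K, had 288, 199, 295 and 302 CPM in RNA and 71.6, 40.1, 58.1 and 42.3 in footprints (log2 ratio -2.37, SE 0.17, adjusted p = 1.02e-06). The higher ones were Rheb, the GTPase that activates mTOR, at 1.47 by counts and 0.85 with the length offset, the mTOR subunit Mlst8 at 1.04 by counts and 0.72 with the length offset and the stress-induced inhibitor Ddit4 at 0.71 by counts and 0.27 with the length offset. The last pair did not pass with the offset (adjusted p = 0.0569 and 0.212).

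Axon guidance receptors and ligands were mostly below their RNA level. Of 39 tested, 27 were lower and 5 higher, with a median of -1.04 by counts and of -0.94 over the 26 with a length, and pair medians from -1.19 to -1.05. Their share was 0.161% to 0.297% of footprints against 0.527% to 0.609% of RNA. Plxnb2, a semaphorin receptor of neural precursors, had 1296, 1077, 1723 and 1868 CPM in RNA and 411, 384, 506 and 392 in footprints (log2 ratio -1.79, SE 0.16, adjusted p = 5.00e-06), and Plxnd1 had 176, 306, 300.4 and 205 and 24.1, 44.7, 36.1 and 18.9 (log2 ratio -3.03, SE 0.16, adjusted p = 3.09e-07). Neither overlapped. The higher ones were the ligand Sema3a at 1.55 and the receptors Epha4 at 0.72, Epha5 at 1.17, Nrp1 at 0.52 and Robo2 at 0.78. Robo2 was higher in all 4 pairs, but without the footprint library of replicate 1, fitted with no replicate block, it was at -0.06.

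Synaptic genes, present at low levels in these precursors, were split. Of 27 tested, 13 were lower and 5 higher, with a median of -0.39 by counts and of -0.20 over the 19 with a length. Grik5, a kainate receptor subunit, had 183, 164, 98.9 and 211 CPM in RNA and 7.49, 9.31, 4.87 and 12.4 in footprints (log2 ratio -4.29, SE 0.17, adjusted p = 1.20e-07). Dlg4, the scaffold PSD-95, had 105, 112, 149 and 159.5 and 14.8, 14.4, 25.7 and 26.1 (log2 ratio -2.73, SE 0.15, adjusted p = 3.87e-07), and Nlgn2, an adhesion protein of inhibitory synapses, was at -3.04 by counts and -3.05 with the length offset. All 3 had footprints wholly below RNA. Among the higher ones were Gria2, an AMPA receptor subunit, at 1.26 by counts and 1.22 with the length offset, and the vesicle proteins Vamp2 at 2.30 by counts and 0.82 with the length offset, Syt11 at 0.69 by counts and 0.43 with the length offset and Syp at 0.58, the last of which did not pass with the offset (adjusted p = 0.103).

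Most adhesion receptors were above the typical gene. Of 26 integrins and adhesion receptors, 17 were higher and 5 lower, with a median of 0.75 by counts and of 0.73 over the 23 with a length. Itgb1, the common beta subunit, had 758, 1356, 603 and 524 CPM in RNA and 1573, 1846, 1648 and 1492 in footprints, without overlap (log2 ratio 1.12, SE 0.19, adjusted p = 3.93e-04). Cd9, a tetraspanin that partners integrins, was at 1.87 by counts and 1.53 with the length offset, and Chl1, of the L1 family, at 1.94 by counts and 1.88 with the length offset. The 5 lower ones were Itga9 at -0.64, Itgb5 at -1.76, Cdh4 at -0.53, Cadm4 at -1.201 and Cdh11, a cadherin with 56.3, 95.1, 33.95 and 18.9 CPM in RNA and 9.88, 10.9, 1.19 and 1.44 in footprints (log2 ratio -3.33, SE 0.31, adjusted p = 6.00e-06). With the offset 3 were lower. Itga9 did not pass (-0.38, adjusted p = 0.0556), Cdh11 had no usable length, and Itgb5 and Cadm4 were at -2.04 and -1.58. Of 36 matrix genes and proteoglycans, 11 were higher and 13 lower, shares close to the 36.4% and 34.4% of all genes tested, with a median of -0.00136 by counts and 0.08 over the 34 with a length. Ptprz1, a chondroitin sulphate receptor of neural precursors, had 5578, 2111, 843 and 964 CPM in RNA and 11027, 3512, 2117 and 3639 in footprints (log2 ratio 1.24, SE 0.201, adjusted p = 2.85e-04). Bcan, the brain proteoglycan brevican, had 4679, 1742, 1525 and 1469 CPM in RNA and 3029, 1297, 715 and 655 in footprints, the reverse (log2 ratio -0.83, SE 0.17, adjusted p = 0.00121). Both were highest in replicate 1 in both assays. Sparc was at 1.27 by counts and 0.88 with the length offset and Sdc2, a cell surface proteoglycan, at 2.03 by counts and 1.51 with the length offset. Of 25 clustered protocadherins, whose shared exons make single values uncertain, 9 were higher and 6 lower, against 36.4% and 34.4% of all genes tested. Their median was 0.15.

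Tuba1a and Tuba1b were far below their RNA level, and Tubb2b, Tubb2a and Tubg1 were lower by less. Of 20 genes of the cytoskeleton list, 9 were higher and 5 lower, against 36.4% and 34.4% of all genes tested, with a median of 0.35. The 5 lower ones were tubulins: Tuba1a, Tuba1b, Tubb2a, Tubb2b and Tubg1. Tuba1a had 2472, 2285, 1987 and 2554 CPM in RNA and 397, 556, 374 and 351 in footprints, far below RNA in each culture (log2 ratio -2.49, SE 0.17, adjusted p = 9.71e-07). Tuba1b had 519, 1425, 2661 and 2899.9 and 44.9, 110.3, 164 and 117 (log2 ratio -3.97, SE 0.21, adjusted p = 2.82e-07), but shares much of its sequence with Tuba1a, so how reads were divided between them is uncertain. Tubb2b was at -1.07, Tubb2a at -0.63 and Tubg1, which nucleates microtubules, at -0.65. Actg1, the other cytoplasmic actin, had 4693, 2635, 4506 and 4299.9 CPM in RNA and 5437, 5245, 7355 and 5915 in footprints, wholly above (log2 ratio 0.59, SE 0.17, adjusted p = 0.00964, 0.48 with the offset), while Actb, given above, did not pass. Cfl1, which severs actin filaments, had 446, 424, 678 and 708 CPM in RNA and 2058, 2580.0, 2940.3 and 3238 in footprints (log2 ratio 2.28, SE 0.15, adjusted p = 8.09e-07, 1.66 with the offset), and Pfn1, which feeds actin monomers to growing filaments, was at 2.50 by counts and 1.64 with the length offset.

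Metabolic enzymes of one pathway lay on both sides of the typical gene. Of 16 glycolytic enzymes, 8 were higher and 3 lower, with a median of 0.36 by counts and 0.25 with the offset. Pgk1 had 439.9, 978, 413 and 605 CPM in RNA and 1126, 2961, 1205 and 1608 in footprints, higher in each culture (log2 ratio 1.48, SE 0.14, adjusted p = 5.82e-06), whereas Eno1 had 895, 1927, 1594 and 1326 and 450.3, 1145, 742 and 492, lower in each (log2 ratio -1.07, SE 0.15, adjusted p = 1.13e-04). Gapdh and Pfkl, at -0.57, were lower too. Of 29 genes of cholesterol and fatty acid synthesis, 11 were higher and 6 lower, against 36.4% and 34.4% of all genes tested, with a median of 0.10. Idi1, which isomerises the isoprenoid building block (chr13:8885606-8892396), had 27.5, 94.9, 82.3 and 70.5 CPM in RNA and 349, 864, 870.3 and 943 in footprints, far above in every culture (log2 ratio 3.50, SE 0.16, adjusted p = 1.50e-07, 3.31 with the offset). Srebf2, the transcription factor of the pathway, was lower (-1.51 by counts and -1.40 with the length offset).

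Transcription factors of neural stem cells stood around the typical gene. Of 42 tested, 13 were higher and 13 lower, against 36.4% and 34.4% of all genes tested. Their median was 0.02 by counts and -0.17 over the 39 with a length. Id3 and Id2, short inhibitors of neurogenic helix-loop-helix factors, were at 3.33 by counts and 2.14 with the length offset, and at 2.64 by counts and 1.45 with the length offset. Olig1, a factor of the oligodendrocyte lineage, had 693, 403, 522 and 728 CPM in RNA and 1213, 924, 763 and 1189.5 in footprints (log2 ratio 0.81, SE 0.15, adjusted p = 6.47e-04, 0.52 with the offset), whereas Lhx2, a homeobox factor, had 54.98, 38.4, 33.03 and 36.1 and 17.1, 3.87, 10.8 and 7.57 (log2 ratio -2.17, SE 0.27, adjusted p = 4.35e-05). Fabp7, the fatty acid binding protein that marks radial glia, had 423, 235, 211 and 174 CPM in RNA and 3721, 2404, 1745 and 2432 in footprints, wholly above (log2 ratio 3.34, SE 0.18, adjusted p = 2.82e-07, 2.16 with the offset).

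Immediate early genes, induced within minutes of a stimulus, were below their RNA level with large differences between cultures. Of 19 tested, 12 were lower and 3 higher, with a median of -0.83 by counts and -1.40 with the offset, and pair medians from -1.59 to -0.12. Fos had 3879, 704, 43.1 and 17.4 CPM in RNA and 2271, 62.7, 16.4 and 11.8 in footprints, so its RNA was far higher in replicates 1 and 2. Its pair ratios were -0.77, -3.48, -1.38 and -0.55 (log2 ratio -1.56, SE 0.42, adjusted p = 0.00656, -2.08 with the offset), and without the RNA library of replicate 1, fitted with no replicate block, the ratio was 1.22 and did not pass (adjusted p = 0.621). Egr1 had 2782, 711, 446 and 431 CPM in RNA and 1378, 151, 150.1 and 168 in footprints (log2 ratio -1.54, SE 0.195, adjusted p = 5.00e-05, -1.84 with the offset), and Jund 1287, 317, 319 and 265 and 302, 59.8, 70.1 and 69.1 (log2 ratio -2.16, SE 0.14, adjusted p = 7.37e-07, -2.59 with the offset). Both were lower in every pair, and both were highest in replicate 1. The higher ones were Btg2, which restrains proliferation, at 2.06 by counts and 1.02 with the length offset, Klf6 at 1.02 by counts and 0.57 with the length offset and Klf10 at 0.61 by counts and 0.49 with the length offset. Astrocyte markers were higher in the same cultures, and their part in these differences was not tested.

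Among called genes with a mean of at least 20 CPM and one sign in all 4 pairs, the 15 with the highest ratios were all short, at 0.1000 to 0.277 of the median footprint length (Rpl38 and Ube2v2). Of the 15 lowest only 4 had a usable length in both assays: Chchd2 at 0.301, Hist1h2bq at 0.26, Hist1h2bl at 0.241 and Tuba1b at 1.01. Most of the others lacked a footprint length but had an implied RNA length above the median gene. Examples were 3.05 for Adcy1, 2.90 for Mllt6, 2.45 for Map3k10 and 1.44 for Ppp1r15a. Ube2v2, which builds ubiquitin chains for DNA repair, was at 5.21 by counts and 4.34 with the length offset, and Minos1, which shapes the inner mitochondrial membrane, at 5.999 by counts and 2.56 with the length offset. At the low end, Map3k10, a kinase of the JNK pathway, had 64.8, 56.6, 55.7 and 70.03 CPM in RNA and 1.698, 1.32, 1.30 and 1.56 in footprints (log2 ratio -5.38, SE 0.195, adjusted p = 1.20e-07), Adcy1, an adenylyl cyclase, 36.5, 125, 79.98 and 70.9 and 1.62, 3.63, 3.78 and 1.92 (log2 ratio -4.79, SE 0.21, adjusted p = 1.37e-07), and Mllt6, a chromatin reader, 88.7, 105, 90.8 and 127 and 3.09, 3.96, 4.76 and 6.60 (log2 ratio -4.52, SE 0.19, adjusted p = 1.20e-07). Each had only a few CPM in every footprint library. Chchd2, a mitochondrial protein, had 87.6, 69.9, 130.3 and 162 CPM in RNA and 3.55, 3.87, 2.81 and 5.04 in footprints (-4.81 by counts, -5.52 with the offset).

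The direction of a list median can depend on the scale. On TPM values that were not centred, on total counts, or on both, the medians of other TOP mRNAs, aminoacyl-tRNA synthetases, selenoproteins, glycolysis, cholesterol synthesis, DNA replication, G1 regulators, neural stem cell factors, mRNA regulators, cytoskeleton and protocadherins changed sign. The median of the matrix list, close to 0 by counts, was above 0 only on centred TPM (0.22). The medians of ribosomal proteins, initiation factors, oxidative phosphorylation, mitochondrial ribosomal proteins, proteasome, CCT and prefoldin, endoplasmic reticulum chaperones, mitosis genes, SR proteins and hnRNPs, and adhesion receptors stayed above 0 on each scale. Those of the upstream frame, iron, signalling, immediate early, zinc finger, chromatin, axon guidance, synaptic and mTOR lists stayed below it.

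The ratios of WT cells returned in KO cells of the same experiment. In the 4 KO pairs, 3715 of 10060 genes were higher in footprints (36.9%) and 3620 lower (36%). Of the 3547 higher WT genes tested in KO cells, 3373 were higher there and none (0) lower, and of the 3379 lower ones, 3219 were lower there and none (0) higher. Over the 9774 genes tested in both, the log2 ratios correlated at r = 0.990, with a median absolute difference of 0.10. The KO values were -3.39 for Atf4, -4.54 for Slc35a4, -4.04 for Smo, -2.51 for Akt1, -1.75 for Gapdh, 2.75 for Psmc6, 3.60 for Idi1 and 3.35 for Cenpf. The KO libraries share the assays, gene models and counting with the WT ones, so that lengths or reads which shape a WT ratio shape the KO ratio too.

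**Figure D5:**
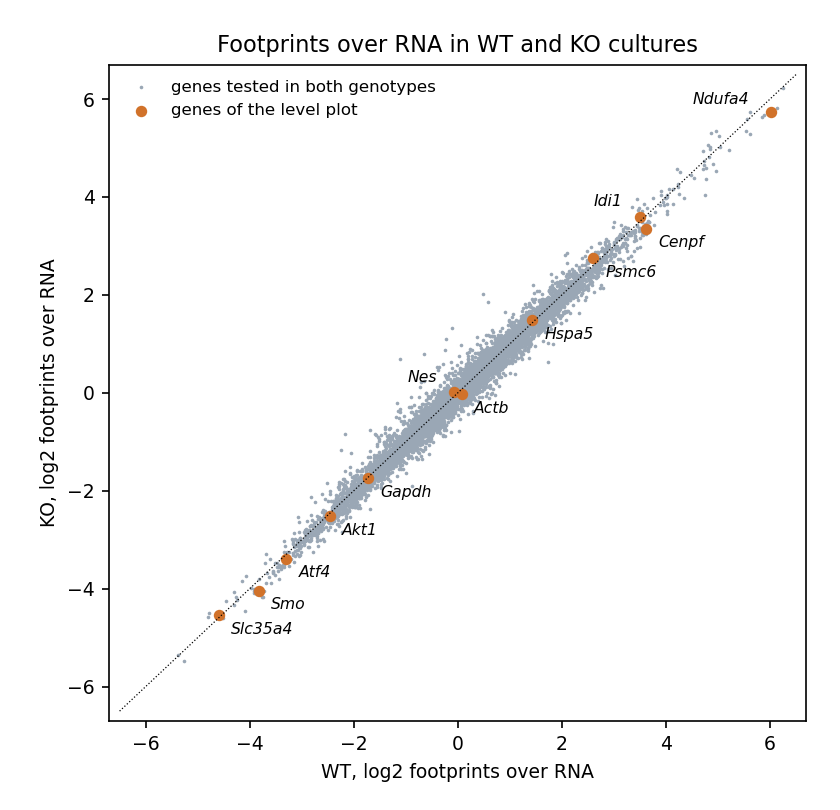
Log2 ratio of footprints to RNA in WT cells (x axis) and KO cells (y axis) for the 9774 genes tested in both, with the line of equality and the 12 genes of the level plot in orange. The points follow the line from Slc35a4 at -4.59 in WT cells to Ndufa4 at 6.03.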

How the data were processed

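Footprints and cytoplasmic RNA of 4 WT cultures were analysed, with 4 KO cultures only beside them. The authors deposited an estimated count per gene, held as whole numbers, and a table of TPM that had been rounded to whole numbers and is treated as a score. Build mm10 and the tools RSEM 1.2.11, TopHat2 2.0.9, Bowtie2 2.1.0, cutadapt 1.7.1, bedtools 2.22.0 and SAMtools 0.0.19 are named in the submitters' processing notes, with no role stated. Collapsing of identifiers and use of strand are not given in the sources. Reads shared by similar genes are apportioned by RSEM's expectation step, so near-identical, overlapping and antisense genes are uncertain. Of 20436 entries, 27 had a bare number for a symbol (0.244% to 0.396% of a WT library's counts) and were left out, leaving 20409 genes. Of these, 19269 symbols matched RefSeq (GRCm38.p6), the source of coordinates and start windows. Only 1 of 60 listed non-coding RNAs is in the file.

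The test was edgeR 4.0.16 in R 4.3.3: TMM over the 8 WT libraries, filterByExpr in both assays, glmQLFit and glmQLFTest with replicate and assay as terms, two-sided, Benjamini-Hochberg adjustment and a threshold of 0.05. The SE is the log2 ratio divided by the root of F. KO pairs were fitted alike. Pairs come from the protocol, which takes both assays from one lysate. Deviations from assay means correlated at 0.474 to 0.920 within numbers and at -0.732 to 0.354 between them, and 8 of 8 libraries matched their own number best. RNA libraries are the shallower, so RNA counts limit low genes. The length offset uses counts over TPM summed over 4 libraries, for genes with at least 20 TPM in each assay. Tried alternatives were other scalings, filters, tools, blocks, left-out libraries, the identifier length and the TPM scale. On simulated counts with 200 changed genes, edgeR recovered 86% of 2-fold losses and 98% of 2-fold gains. The simulation ran 10933 genes, left the others unchanged and held no length effect, while most genes were called in the data. It therefore does not show how the scaling or the length effect acts on the ratios.

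The members and lists were chosen with earlier results of these data known. The naming rule takes the 15 highest and 15 lowest ratios of called genes with at least 20 CPM and one sign in 4 pairs, up to 4 called members of each list with the largest ratios at 5 CPM or more and its 2 most abundant members, a few fixed genes (Fmr1, Sox2, Nes, Atf4, Oaz1, Malat1, Eef1a1, Actb and Gapdh), and listed non-coding RNAs with at least 10 RNA counts in every WT RNA library. It gives 223 genes, of which 120 are printed, and some others are not reported here. A further 69 lie outside it, and these and the choice among the 223 were made after values were seen. Figures were drawn with matplotlib 3.10.9 (Python 3.11.15).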

Additional observations from a re-analysis of the deposited data

Results flagged for a closer look

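Among 189 genes named in the text, 10 had 1 culture whose footprint-to-RNA ratio lay far from those of the other 3, by Dixon's test at the 95% level. Chance gives about 1 gene in 20. Pair 2 was the one apart in 8 of the 10. In pair 2 the log2 ratio was lower than in the other cultures for Ccne2 (1.42 against 2.21 to 2.38), Ctnnb1 (0.74 against 0.94 to 0.97), Dars (1.06 against 1.63 to 1.68) and Hnrnpul1 (-1.25 against -0.99 to -0.95). It was higher for Mrpl15 (1.58 against 0.97 to 1.02), Pfdn5 (3.12 against 2.28 to 2.40), Sparc (1.73 against 1.09 to 1.13) and Vamp2 (3.32 against 1.90 to 1.96). Lrp5 was lowest in pair 4 (-2.81 against -2.22 to -2.10), and Mrps14 was lowest in pair 1 (2.88 against 3.93 to 4.14). Each of these genes had the same sign in all 4 pairs.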

How the results depend on the processing

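The pairing mattered for how many genes passed: with no replicate block, 2272 genes were higher and 2211 lower, and with the length offset and no block 1566 and 1658. Against a fold of 1.5 in place of any difference, 2402 were higher and 2267 lower. With 1 library left out and no block, higher genes numbered 1897 to 2251 and lower genes 1830 to 2258. Without both libraries of a replicate they were 3008 to 3739 and 3061 to 3844, and 2324 higher genes were left with the offset and without replicate 1. TPM values gave 1746 or 1751 higher genes with a pseudocount of 1 or 0.5. DESeq2, limma-voom, other size factors and filters kept both counts within 1.5 times. The identifier length term was called for 0 genes by edgeR, with the smallest adjusted p at 0.124, while 1647 had an unadjusted p under 0.05 (16.5%); no other tool was run on it.

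For single genes, 5084 values under the alternatives kept their direction and side of the threshold, 812 kept direction but no longer passed, 1 came to pass, and 48 changed sign. Actb was -0.117 on total counts, -0.0600 with the length offset and -0.0678 with the offset and no replicate block, and Eef1a1 -0.0943 on total counts and -0.292 in replicates 1 and 2 alone. Atp5b was -0.0799 in replicates 3 and 4 alone. Cox7c was -3.66 with the offset, -3.69 without the block too, and -3.69 and -3.67 on centred TPM. Nes was 0.0956 with the offset, 0.126 without the block too, and 0.0955 and 0.111 on centred TPM. Sox2 was -0.0682 with the offset and -0.0395 without the block too.

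With the offset and a replicate left out, Actb was -0.177, -0.0932 and -0.0340 without replicates 2, 3 and 4, Eef1a1 -0.0260 and -0.110 without 3 and 4, and Tmem208 -0.0425 without 2. Leaving out replicates 1 to 4 in turn gave -3.79, -3.68, -3.71 and -3.53 for Cox7c, 0.126, 0.0657, 0.0835 and 0.0537 for Nes, and -0.161, -0.0412, -0.0139 and -0.109 for Sox2. By counts, with a replicate or a single library left out, values ran from -0.0963 to 0.122 for Actb, -0.0721 to 0.362 for Eef1a1, -0.0281 to 0.454 for Atp5b, -0.233 to 0.140 for Nes, -0.0653 to 0.517 for Sox2, -5.26 to 1.22 for Fos, -1.23 to 0.0101 for Pfkl, -0.0588 to 1.31 for Robo2, -1.69 to 0.556 for Sepp1 and -0.560 to 1.51 for Bmpr1b. The shallower RNA libraries limit genes of few counts, and why these values moved was not tested.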

Other observations

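A few lists that touch on cell identity gave values of their own. The 15 tested markers of neural stem and progenitor cells had a median log2 ratio of 0.03 by counts and -0.07 with the offset. Their share of counts was 1.15% to 1.75% in footprints against 0.980% to 1.33% in RNA. The 8 astrocyte markers had a median of 0.55 by counts, and the 7 with a length had 0.23 with the offset. The 4 neuroblast and neuron markers had a median of 1.05 by counts and 0.93 with the offset. The share of these 4 markers' list was 0.126% to 0.211% in footprints and 0.0291% to 0.0902% in RNA. These medians are descriptions over few genes. In addition, 722 genes had enough counts in footprints only and 241 in RNA only, and no ratio was tested for them.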
